A study of Mus musculus with 16 samples.

Results

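Genes that mark liver macrophages, 10 in all, were followed through the livers of Slc25a47 knockout and control mice, fed or fasted. They were taken by gene symbol from the deposited table of 53714 genes, and all 10 were among the 13905 genes with enough reads to test. Clec4f, Timd4, Vsig4, Cd5l and Marco (5 genes) mark resident Kupffer cells, Adgre1, Csf1r and Cd68 (3 genes) mark macrophages in general, and Trem2 and Cd9 (2 genes) mark lipid-associated macrophages. The mice were males aged 9 weeks on a C57BL/6 Slc25a47tm1c(EUCOMM)Hmgu background. Knockout mice (KO, genotype Slc25a47hep-/-) were targeted in hepatocytes at the gene of the mitochondrial carrier Slc25a47. Control mice (WT) had the genotype Slc25a47hep+/+, and the Cre line is not given in the sources used here. The 4 groups were fasted KO, fasted WT, fed KO and fed WT, with 4 libraries each from whole liver after an overnight fast or without one. The labels name separate samples and nothing more, so p-values measure the spread between these samples.

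Kupffer cells are the macrophages that live inside the liver sinusoids, attached to endothelial and stellate cells, and they clear particles, bacteria, old red cells and lipoproteins from portal blood. Their identity is held by signals from those neighbours, among them CSF1 and IL-34 acting on the receptor encoded by Csf1r. In fatty or injured mouse livers, macrophages that carry TREM2 and CD9 gather around lipid-laden hepatocytes; such cells often have less Timd4 and Clec4f than the resident cells. In RNA from whole liver, fewer cells of a type and less RNA per cell cannot be told apart.

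Between 19.6 and 27.3 M reads per library fell in genes. The targeted gene, Slc25a47, was at 163 to 331 CPM (reads per M assigned to genes, scaled by TMM) in fasted KO and 855 to 1140 CPM in fasted WT livers. It was at 81.8 to 153 CPM in fed KO and 461 to 836 CPM in fed WT livers, so the KO and WT libraries did not overlap in either state. Reads of the gene thus remained in KO livers, and the protein was not measured here. As a check of the tissue, 11 hepatocyte markers summed to 101600 to 147900 CPM. TMM factors were 1 to 1.141 in KO libraries and 0.9028 to 0.9662 in WT libraries, and reads with several alignments made up 32 to 39.3% of counts in KO and 40.4 to 45.8% in WT libraries; the part of these differences in the results was not tested. With library totals in their place, the median log2 fold change of all genes moved to 0.22 (fed) and 0.20 (fasted) between KO and WT; the changes below are relative to the TMM scale.

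Promoters were read from RefSeq (build GRCm38.p6) for 8 of the 10 genes, all but Adgre1 and Csf1r. Those below belong to the genes whose KO and WT livers separated most (Cd68, Trem2, Cd9 and Marco) and to Vsig4, a Kupffer marker whose groups overlapped. Each runs 5′ to 3′ along the gene's own strand through the bases before its RefSeq start, and that of Cd9 stops where an annotated transcript begins. Capitals mark the core of the binding box of PU.1, the macrophage lineage factor encoded by Spi1, searched as GAGGAA on both strands (TTCCTC on the other).
Cd68 (chr11:69666171-69666420, minus strand): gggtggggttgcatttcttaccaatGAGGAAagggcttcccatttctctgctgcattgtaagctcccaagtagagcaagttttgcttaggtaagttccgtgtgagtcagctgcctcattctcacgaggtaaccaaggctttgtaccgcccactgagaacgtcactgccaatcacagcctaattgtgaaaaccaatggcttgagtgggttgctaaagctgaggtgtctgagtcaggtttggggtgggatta
Trem2 (chr17:48346151-48346400, plus strand): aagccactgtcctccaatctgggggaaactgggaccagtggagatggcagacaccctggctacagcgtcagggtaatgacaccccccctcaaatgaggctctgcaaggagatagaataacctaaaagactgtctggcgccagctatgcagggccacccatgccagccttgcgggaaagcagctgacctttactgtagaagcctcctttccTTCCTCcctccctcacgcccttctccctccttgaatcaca
Cd9 (chr6:125494792-125495010, minus strand): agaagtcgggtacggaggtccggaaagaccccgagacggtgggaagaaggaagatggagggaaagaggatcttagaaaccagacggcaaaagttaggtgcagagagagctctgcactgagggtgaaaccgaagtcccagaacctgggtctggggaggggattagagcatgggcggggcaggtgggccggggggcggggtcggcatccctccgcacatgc
Marco (chr1:120505025-120505274, minus strand): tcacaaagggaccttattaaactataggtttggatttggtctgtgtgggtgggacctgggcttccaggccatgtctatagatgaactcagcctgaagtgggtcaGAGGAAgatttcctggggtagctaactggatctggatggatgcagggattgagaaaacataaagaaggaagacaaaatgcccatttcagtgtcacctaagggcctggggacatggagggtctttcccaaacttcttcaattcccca
Vsig4 (chrX:96293439-96293688, minus strand): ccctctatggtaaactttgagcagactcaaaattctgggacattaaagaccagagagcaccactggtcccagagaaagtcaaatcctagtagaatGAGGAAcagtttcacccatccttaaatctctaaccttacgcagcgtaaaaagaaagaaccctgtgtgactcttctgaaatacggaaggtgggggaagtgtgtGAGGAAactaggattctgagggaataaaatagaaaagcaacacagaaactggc

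The box stood in the promoters of 5 of the 8 genes (Cd5l, Cd68, Marco, Trem2 and Vsig4), and in 23.25% of 32851 promoters of 250 bases. Vsig4 had 2 copies. The pattern TGANTCA, a loose form of the AP-1 site of Fos and Jun proteins, stood in the promoters of Cd68 and Trem2 (2 of 8), against 6.749% of all promoters. Cd68 matched as TGAGTCA and Trem2 as TGAATCA. The MAF half-site TGCTGA stood in 3 of 8 (Cd5l, Clec4f and Timd4), against 16.08% of all promoters. Cd9 differed from the other 7 in base composition. Its 250 bases held 16 CpG pairs and 61.6% G or C, and 25.44% of all promoters had at least as many CpG pairs; the other 7 held 0 to 4 and the median promoter held 6. These letter matches are descriptions of sequence and do not show binding.

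All 10 markers were read in every library. Per kb of exon, averaged over the 16 libraries, the highest levels were those of Cd5l (39.6 CPM per kb) and Clec4f (39.0 CPM per kb). Cd5l is a protein that Kupffer cells secrete into plasma, and Clec4f is a Kupffer cell lectin that binds glycans. Their SDs over the libraries were 9.92 and 7.27 CPM per kb, so their order is within the spread. Vsig4, the complement receptor that catches C3b-coated particles, followed at 23.5 CPM per kb.
Csf1r (10.1 CPM per kb), Cd9 (8.89 CPM per kb) and Cd68 (8.16 CPM per kb) lay close together. Cd9 encodes a tetraspanin, a membrane organiser that many cell types besides macrophages make, and Cd68 encodes a glycoprotein of lysosomes. Adgre1, which encodes F4/80, stood at 6.47 CPM per kb and the scavenger receptor gene Marco at 6.13 CPM per kb. Timd4, the phosphatidylserine receptor with which resident macrophages take up dying cells, had 2.89 CPM per kb. Trem2, a lipid-sensing receptor, was lowest at 0.187 CPM per kb, on 4 to 50 reads per library; its exon length joins all annotated transcripts (4946 bases), which lowers its value per kb.

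**Figure D1:**
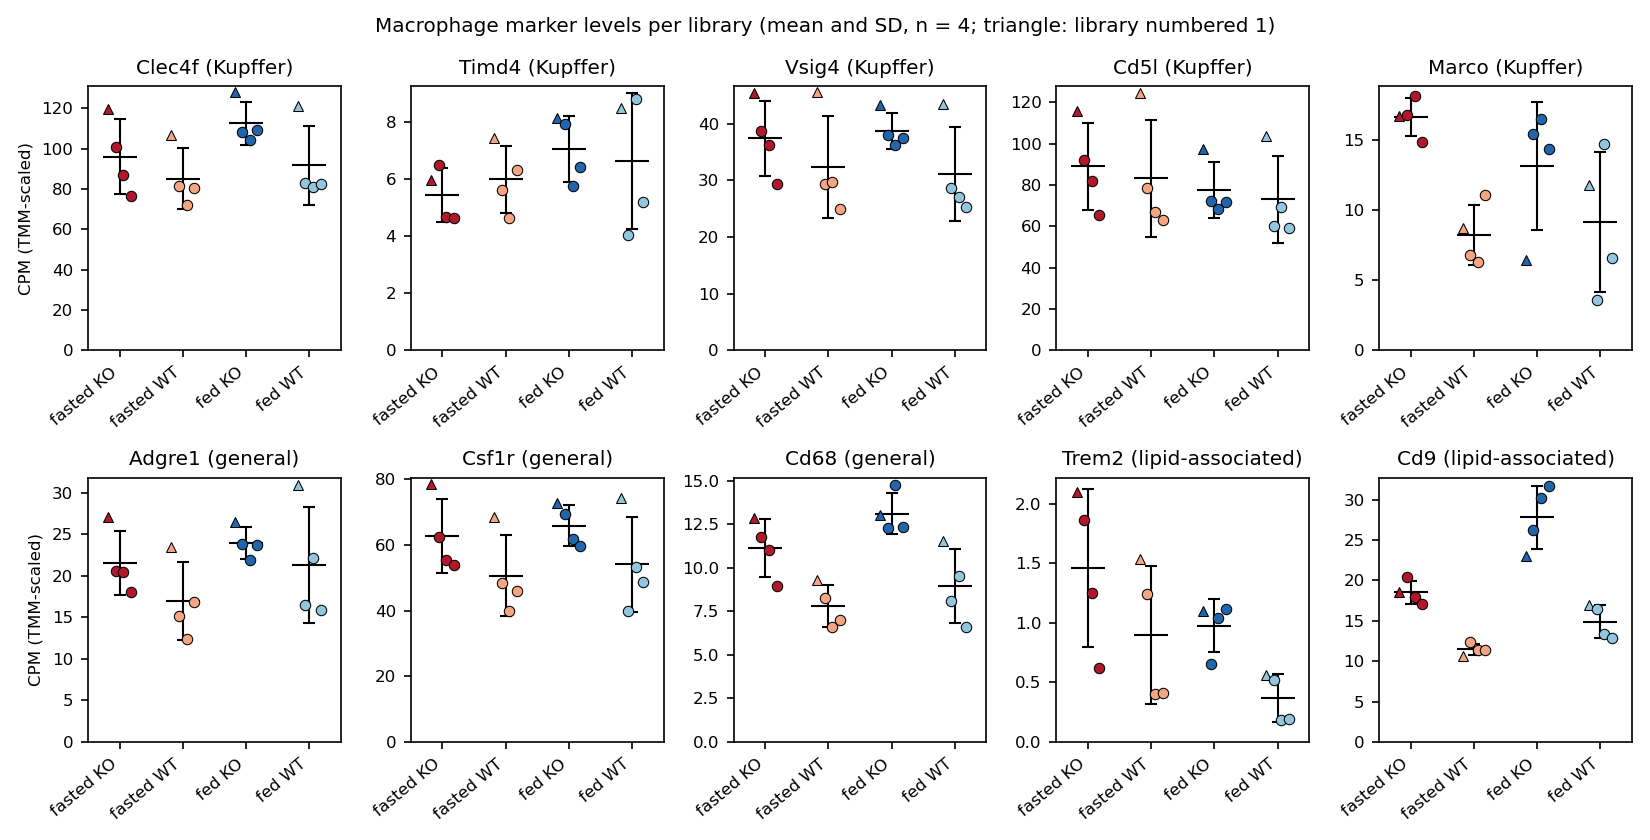
TMM-scaled CPM of each marker (vertical axes, from 0) in the 4 libraries of each group (horizontal axes), with the mean and SD; triangles are the libraries numbered 1. Cd9 points of KO and WT livers do not overlap in either feeding state, while the triangles of Clec4f, Vsig4, Cd5l, Adgre1 and Csf1r stand at the top of every group.

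A library pattern ran through the resident markers. In all 4 groups the library numbered 1 had the highest level of Clec4f, Vsig4, Cd5l, Adgre1 and Csf1r, which was true of 174 of the 13905 tested genes (1.25%). Its Cd5l level was 1.36 to 1.86 times the median of the other 3 libraries of its group, and its Clec4f level 1.18 to 1.47 times. Marco was highest in the library numbered 1 in 0 groups, and Cd9 in 1 group. The labels give no batch for these libraries. Over all genes, the deviations of same-number libraries had correlations of -0.174 to 0.251, and those of the libraries numbered 1 ran from -0.174 to 0.154. Results are also given without these 4 libraries, a choice made after seeing the data.

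The first comparison asked whether fed KO and fed WT livers differ in these markers. In fed KO livers 3 of the 10 markers rose and 0 fell against fed WT livers, where 30.9% of all tested genes were called (14.0% higher, 16.9% lower). The 3 were both lipid-associated markers, Cd9 and Trem2, and the lysosomal marker Cd68, and in each the KO and WT libraries did not overlap (12.9% of all genes were separated upward and 15.4% downward). Of the 5 Kupffer markers, 0 passed edgeR's test, 0 had an unadjusted p under 0.05, and DESeq2 also called 0. The median log2 fold change was 1.14 for the lipid-associated, 0.29 for the general and 0.29 for the Kupffer markers, against -0.01 over all genes.

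Cd9 had the smallest p of the 10. Its levels were 23.05, 26.3, 30.2 and 31.6 CPM in fed KO livers, against 16.9, 16.4, 13.4 and 12.85 CPM in fed WT livers. Every KO library was above every WT library, and the log2 fold change was 0.90 ± 0.11 (SE; edgeR adjusted p = 6.36e-06), a 1.86-fold rise. The Cd9 locus (chromosome 6, 125460266 to 125494791, minus strand, GRCm38) shares 218 exon bases with Gm26728 on the other strand, and the strand setting of the counting is not given in the sources used here.

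Trem2 was at 1.10, 0.651, 1.04 and 1.12 CPM in fed KO livers and at 0.558, 0.520, 0.1855 and 0.196 CPM in fed WT livers. These levels rest on 17 to 27 reads per KO library and 4 to 13 per WT library. The lowest KO library stood just above the highest WT library, a log2 difference of 1.39 ± 0.51 (SE; edgeR adjusted p = 0.0454), or 2.62-fold. This call was lost when replicate 1, 3 or 4 of fed KO, 2, 3 or 4 of fed WT, or 3 of fasted KO was left out (log2 fold change 1.17 to 1.63, adjusted p 0.0264 to 0.118 over the 16 refits). It was also lost without the 4 libraries numbered 1 (1.55, adjusted p = 0.0648).

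Cd68 was at 13.05, 12.3, 14.8 and 12.3 CPM in fed KO livers, against 11.6, 8.12, 9.505 and 6.62 CPM in fed WT livers. The KO libraries lay in a narrow band above all WT libraries. Its log2 fold change was 0.55 ± 0.15 (SE; edgeR adjusted p = 0.00949). The other general markers overlapped between the genotypes: Csf1r, the growth factor receptor on which macrophages depend, had a log2 fold change of 0.29 ± 0.19 (adjusted p = 0.272) and Adgre1 one of 0.17 ± 0.21 (adjusted p = 0.571). Csf1r shares 873 exon bases with Hmgxb3 on the opposite strand.

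Among the Kupffer markers, Clec4f was at 128, 108, 104 and 109.5 CPM in fed KO livers, against 121, 82.9, 81.1 and 82.3 CPM in fed WT livers. Vsig4 was at 43.3, 37.9, 36.2 and 37.4 CPM in fed KO livers, against 43.5, 28.7, 27.0 and 25.35 CPM in fed WT livers. In both genes 3 WT libraries lay below all KO libraries and the fourth, WT replicate 1, lay among or above them. Clec4f differed by 0.29 ± 0.16 on the log2 scale (SE; edgeR adjusted p = 0.168) and Vsig4 one of 0.32 ± 0.19 (adjusted p = 0.238). Without fed WT replicate 1 both passed, at 0.45 (adjusted p = 0.0236) for Clec4f and 0.52 (adjusted p = 0.0371) for Vsig4. With the replicate number as a block both passed too (adjusted p = 0.00663 for Clec4f and 0.0099 for Vsig4), as did Csf1r (adjusted p = 0.0359). Clec4f, Vsig4 and Csf1r were already seen to be highest in the library numbered 1 of every group, a spread that the block takes up. The labels give the number no meaning, so the block values are not added evidence.
Cd5l was at 97.45, 72.2, 68.2 and 71.6 CPM in fed KO livers and 103, 60.1, 69.3 and 59.0 CPM in fed WT livers, which overlapped (0.09 ± 0.25, adjusted p = 0.822). Timd4 ranged over 5.76 to 8.12 CPM in fed KO and 4.04 to 8.81 CPM in fed WT livers (0.10 ± 0.22, adjusted p = 0.769). Marco was at 6.445, 15.4, 16.5 and 14.4 CPM in fed KO livers and 11.8, 3.60, 14.7 and 6.57 CPM in fed WT livers. It varied most within groups of the Kupffer markers, and its log2 fold change was 0.53 ± 0.37 (adjusted p = 0.304).

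With the 4 libraries numbered 1 left out, edgeR called 5 of the 10 markers in fed livers, all higher in KO. These were Cd9 (1.03), Cd68 (0.69), Vsig4 (0.45), Csf1r (0.42) and Clec4f (0.38, adjusted p = 0.0103). Of 13946 genes tested in that fit, 1381 were called higher and 1712 lower.

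**Figure D2:**
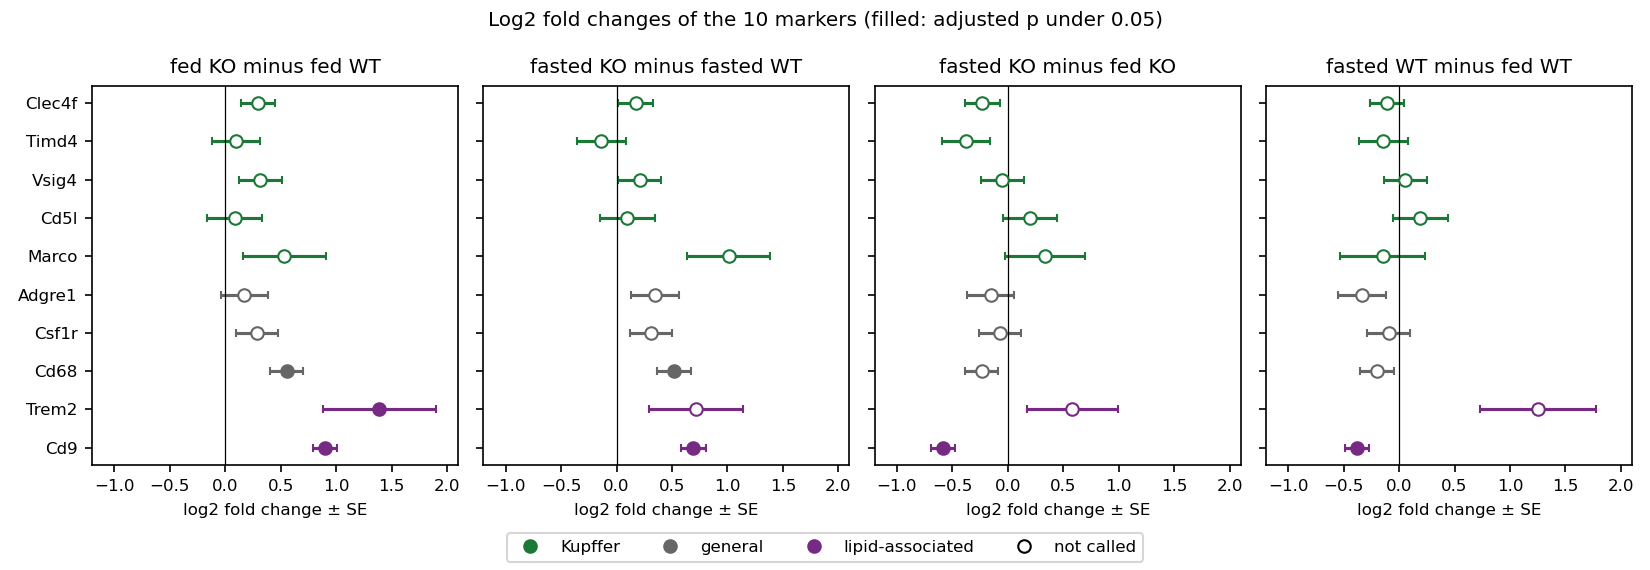
Log2 fold change and its SE (horizontal axes) of each marker in the 2 genotype and 2 fasting contrasts; filled points passed an adjusted p of 0.05. Cd9 is filled in all 4 contrasts and Cd68 in both genotype contrasts, and every Kupffer marker is open.

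The second comparison was of the genotypes after the fast. In fasted KO livers 2 of the 10 markers, Cd9 and Cd68, rose and 0 fell against fasted WT livers, where 28.3% of all tested genes were called (13.8% higher, 14.5% lower). Cd9 and Marco were separated between the groups, upward in KO (14.2% of all genes were, and 15.3% were separated downward). Of the 5 Kupffer markers edgeR called 0; 1 of them, Marco, had an unadjusted p under 0.05, and DESeq2 called Marco. The median log2 fold change was 0.70 for the lipid-associated, 0.35 for the general and 0.17 for the Kupffer markers, against 0.01 over all genes.

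Cd9 was at 18.5, 20.4, 18 and 17.1 CPM in fasted KO livers, against 10.7, 12.4, 11.3 and 11.4 CPM in fasted WT livers. The groups were well apart, and the log2 fold change was 0.69 ± 0.11 (SE; edgeR adjusted p = 0.000127), or 1.62-fold. Cd68 was at 12.8, 11.8, 11.03 and 8.93 CPM in fasted KO livers, against 9.29, 8.29, 6.61 and 7.03 CPM in fasted WT livers.
The lowest KO library fell below the highest WT library, and the log2 fold change of Cd68 was 0.52 ± 0.15 (edgeR adjusted p = 0.0168). This call was lost without fasted KO replicate 1 or without fasted WT replicate 3 (adjusted p up to 0.0671).

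Marco was at 16.7, 16.8, 18.1 and 14.8 CPM in fasted KO livers, against 8.70, 6.835, 6.34 and 11.06 CPM in fasted WT livers. All KO libraries were above all WT libraries. The difference was 1.01 ± 0.38 (log2, SE), or 2.02-fold, and its edgeR adjusted p of 0.06 missed the threshold. It passed when replicate 1 of fed KO, or replicate 2 or 3 of fed WT, whose spread enters the same model, was left out (adjusted p down to 0.0203).

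Trem2 was at 2.099, 1.86, 1.25 and 0.6215 CPM in fasted KO livers and at 1.54, 1.24, 0.402 and 0.413 CPM in fasted WT livers. The groups overlapped and differed by 0.72 ± 0.43 on the log2 scale (SE; edgeR adjusted p = 0.23). The other Kupffer markers overlapped as well. Clec4f ranged over 76.6 to 119.7 CPM in fasted KO and 71.9 to 107 CPM in fasted WT livers (0.17 ± 0.16, adjusted p = 0.447), and Vsig4 over 29.3 to 45.4 and 25.0 to 45.5 CPM (0.21 ± 0.20, adjusted p = 0.463). Cd5l ranged over 65.6 to 116 CPM in fasted KO and 63.2 to 124 CPM in fasted WT livers (0.10 ± 0.25, adjusted p = 0.811). Timd4 was the lone marker with a value below 0 (-0.14 ± 0.22, adjusted p = 0.688), and under scaling by library totals it turned to 0.05. Adgre1 and Csf1r had log2 fold changes of 0.35 ± 0.22 (adjusted p = 0.252) and 0.31 ± 0.19 (adjusted p = 0.253).

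Fasted WT replicates 2 and 4 carried transcripts of pancreatic enzymes, whose summed level reached 1762 CPM in that group. It was at most 77.5 CPM in fasted KO, 23.7 CPM in fed KO and 32.5 CPM in fed WT livers. Without these 2 libraries edgeR called 1 marker in the fasted genotype contrast, Cd9, and the adjusted p of Cd68 was 0.0875. Of 14345 genes tested in that fit, 1558 were called higher and 1639 lower. EdgeR called 4 markers once the 4 libraries numbered 1 were removed, namely Cd9, Cd68, Adgre1 (0.42, adjusted p = 0.0448) and Csf1r (0.36, adjusted p = 0.0347). That fit called 1370 higher and 1461 lower of 13946 genes tested.

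The fast itself moved 1 marker. Cd9 fell in fasted KO against fed KO livers (-0.59 ± 0.11, edgeR adjusted p = 0.00024) and in fasted WT against fed WT livers (-0.38 ± 0.11, adjusted p = 0.0123), and in both genotypes the fasted and fed libraries did not overlap. The 1 of 10 markers called compares with 41.4% of all tested genes called in KO livers (21.1% higher, 20.3% lower) and 34.5% in WT livers (16.2% higher, 18.3% lower). Fasted and fed libraries were separated upward in 19.5% and downward in 18.7% of all genes in KO livers, and upward in 15.2% and downward in 17.6% in WT livers. Without the 4 libraries numbered 1, the WT value of Cd9 was -0.29 (adjusted p = 0.0927) and edgeR called 0 markers in WT livers. That fit called 1529 higher and 1868 lower of 13946 genes on fasting in WT livers. The 2 fasting contrasts use different libraries, and Cd9 was called in both on all 16.

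Of the 5 Kupffer markers, 0 passed in either fasting contrast by edgeR or DESeq2, and 0 had an unadjusted p under 0.05. In KO livers Clec4f passed without the 4 libraries numbered 1 (-0.28, adjusted p = 0.03) and when replicate numbers entered as a block (-0.24, adjusted p = 0.0191). The limit given above for the block holds here too. The Kupffer markers' median log2 fold change on fasting was -0.05 in KO and -0.11 in WT livers, against 0.00 (KO) and -0.02 (WT) over all genes. Timd4 had the lowest, -0.38 ± 0.22 in KO livers (adjusted p = 0.176). Trem2 stood at 1.25 ± 0.53 in WT livers (edgeR adjusted p = 0.0746) and 0.58 ± 0.41 in KO livers (adjusted p = 0.275), with overlapping groups. The WT value passed when fasted KO replicate 4, fasted WT replicate 3 or fasted WT replicate 4 was left out (adjusted p down to 0.0348), and DESeq2 also called it. Trem2 and Cd9 thus had values of opposite sign on fasting, and in WT livers only that of Cd9 passed edgeR's test.

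Whether the genotype effect differed between fasted and fed livers was tested as an interaction. None of the 10 markers passed (0 by edgeR, 0 by DESeq2, and 0 at an unadjusted p under 0.05), while 1.70% of all tested genes did (1.07% higher, 0.633% lower). The difference of log2 fold changes, fasted minus fed, was -0.67 ± 0.67 for Trem2 (adjusted p = 0.67), -0.21 ± 0.15 for Cd9 (adjusted p = 0.543) and 0.48 ± 0.53 for Marco (adjusted p = 0.709). The loss of the Trem2 call after the fast is therefore not shown to be a difference between the states.

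Lipid-associated and resident markers were also set against each other inside each library, where the library scaling largely cancels. The measure was the mean log2 CPM of Trem2 and Cd9 minus that of the 5 Kupffer markers. It was -2.59 ± 0.20 (SD, n = 4) in fasted KO and -3.01 ± 0.35 in fasted WT livers, and -2.54 ± 0.26 in fed KO and -3.34 ± 0.57 in fed WT livers. The KO mean was higher by 0.43 in fasted and by 0.80 in fed livers, and in both states the libraries of the genotypes overlapped. It is given as a description with no test, since the genes were chosen.
Against Adgre1 in the same library, Trem2 was at -4.52 ± 0.34 in fed KO and -5.62 ± 0.66 in fed WT livers, a difference of 1.10 with overlap. Cd9 minus Adgre1 was 0.20 ± 0.31 in fed KO and -0.47 ± 0.40 in fed WT livers, a difference of 0.68 with overlap. In fasted livers these differences were 0.37 for Trem2 and 0.32 for Cd9. Without the 4 libraries numbered 1, the difference of the combined measure between KO and WT was 0.79 in fed and 0.41 in fasted livers. Cd9 minus the Kupffer mean was lower in fasted KO than in fed KO livers by -0.56, with no overlap.

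**Figure D3:**
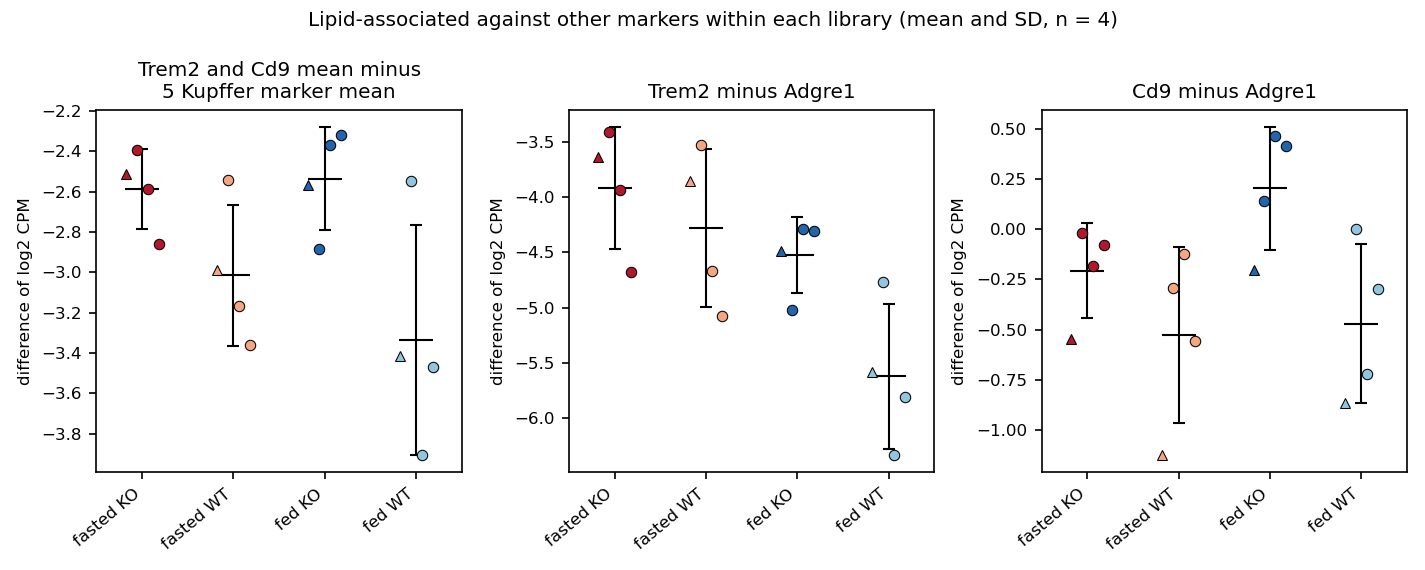
Differences of log2 CPM inside each library (vertical axes) for the 4 groups (horizontal axes), with mean and SD; triangles are the libraries numbered 1. KO means lie above WT means in every panel and both feeding states, and in each the KO and WT points overlap.

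After removal of the group means, the markers fell into those that varied together across libraries and those that did not. The first set includes Clec4f, Vsig4, Cd5l, Adgre1 and Csf1r, which were also highest in the library numbered 1 of every group. Their r is not given without those libraries. All genes of a library share its depth and scaling. Across the 16 libraries, Pearson's r was 0.957 between Vsig4 and Cd5l, 0.946 between Clec4f and Cd5l, and 0.932 between Adgre1 and Csf1r. Cd9 had r of -0.186 to 0.459 with the other 9 markers. Marco stood apart from Clec4f (r = 0.0993) although both are Kupffer markers. Trem2 rests on few reads, and its r with Clec4f was 0.747.
The 5 genes most like Clec4f in these deviations were Folr2 (0.963), C1qa (0.96), Pld4 (0.958), C1qb (0.947) and Ctss (0.947); Folr2 encodes a folate receptor of tissue macrophages, C1qa and C1qb encode chains of complement C1q, and Ctss encodes a lysosomal protease. Those most like Trem2 were B4galt6 (0.945), Pik3cg (0.942), Ang (0.924), Ms4a6d (0.907) and Csrp1 (0.899). Those most like Cd9 were BC016579 (0.86), Tubb6 (0.843), Ppp1ca (0.834), Alg8 (0.833) and Txnrd1 (0.825). Among the 100 genes most like each marker, the other general macrophage genes numbered 13 for Clec4f, 4 for Trem2, 0 for Cd9 and likewise 0 for Marco.

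**Figure D4:**
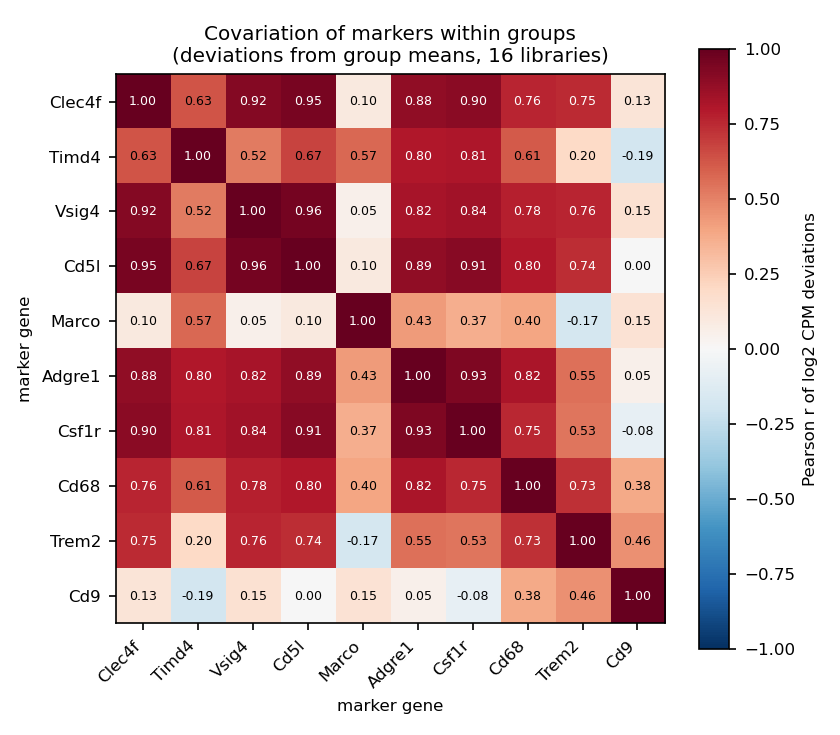
Pearson's r between markers (both axes) of log2 CPM deviations from group means over 16 libraries, from -1 (blue) to 1 (red). Clec4f, Vsig4, Cd5l, Adgre1 and Csf1r form a red block, and the Cd9 row is pale.

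Wider lists of related genes were then read in the genotype contrasts, where 14.0% of all tested genes rose and 16.9% fell in fed KO livers, and 13.8% rose and 14.5% fell in fasted KO livers. The lists were chosen with earlier results of these data known, so their counts beside these shares are a description and not independent evidence. Of 20 other genes linked to lipid-associated macrophages, 10 rose and 1 fell in fed KO livers (median log2 fold change 0.49) and 8 rose and 0 fell in fasted KO livers (median 0.45). Cd36, a fatty acid uptake receptor, rose by 2.35 ± 0.14 in fed KO (edgeR adjusted p = 4.82e-09) and 2.16 ± 0.14 in fasted KO livers (adjusted p = 1.21e-08). Cd63, a tetraspanin of late endosomes, rose by 2.67 ± 0.21 in fed KO and 2.41 ± 0.21 in fasted KO livers. Named after their values were seen, Mmp12, a macrophage elastase (2.44 fed, 2.69 fasted), Ctsl, a lysosomal protease (1.61, 1.15), Anxa2 (1.48, 1.51) and the lipase gene Lpl (1.29, 1.10) were called in both states.
Gpnmb, a lysosomal glycoprotein gene, averaged 0.555 ± 0.223 CPM in fed KO livers, against 0.140 ± 0.0907 CPM in fed WT livers (1.98 ± 0.48, adjusted p = 0.00411). Fabp5, a fatty acid carrier, averaged 29.3 ± 7.96 CPM in fed KO livers against 146 ± 73.2 CPM in fed WT livers (SD, n = 4), and was the 1 that fell (-2.32 ± 0.37, adjusted p = 0.000578). Its fasted value was 0.47 ± 0.40 (adjusted p = 0.422). Many genes of the list are made by hepatocytes too: Apoe, a lipoprotein component, averaged 12000 CPM in fasted KO, 12410 CPM in fasted WT, 11280 CPM in fed KO and 11630 CPM in fed WT livers. Trem2 and Cd9 together summed to 32.8 CPM at most. Without the 4 libraries numbered 1 the list had 9 higher and 1 lower (fed) and 7 higher and 0 lower (fasted). Of 13946 genes, that fit called 1381 higher and 1712 lower (fed) and 1370 and 1461 (fasted). Without fasted WT replicates 2 and 4 the fasted count was 5, with 1558 higher and 1639 lower of 14345 genes.

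The wider resident and general lists were read against the same shares of all genes. Of 18 other Kupffer-enriched genes, 3 rose in fed KO and 2 in fasted KO livers and 0 fell (medians 0.19 and 0.12). Fcna, the ficolin gene of Kupffer cells, averaged 50.6 ± 1.56 CPM in fed KO livers against 37.7 ± 4.10 CPM in fed WT livers (0.43 ± 0.09, adjusted p = 0.00179), and rose by 0.37 ± 0.09 in fasted KO livers (adjusted p = 0.00562). Of 25 other general macrophage genes, 0 rose and 2 fell in fed KO livers, and 1 rose and 0 fell in fasted KO livers (medians 0.19 and 0.20). Among those that fell was, named after its values were seen, Mpeg1, the perforin-like gene of macrophages (-0.69 ± 0.25, adjusted p = 0.0487). The 1 that rose was Sirpa, a receptor that restrains uptake (0.40 ± 0.13, adjusted p = 0.0283). That call was lost without replicate 1, 2 or 3 of fasted KO or 3 or 4 of fasted WT (adjusted p up to 0.0924), and without both fasted WT replicates 2 and 4 (0.31, adjusted p = 0.145). Without the 4 libraries numbered 1, a choice made after seeing the data, the general list had 7 higher and 2 lower in fed KO livers. That fit called 1381 higher and 1712 lower of 13946 genes tested.

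Genes that signal to or from these cells were read next, against the same shares of all genes. Of 13 genes of TREM2 signalling and its ligands, Trem2 included, 1 rose and 2 fell in fed KO livers and 1 rose and 2 fell in fasted KO livers. Tyrobp, the adaptor through which TREM2 signals, was at 0.09 ± 0.16 (adjusted p = 0.713) in fed and 0.27 ± 0.17 (adjusted p = 0.249) in fasted livers. Syk, the kinase downstream, rose in fasted KO livers (0.39 ± 0.14, adjusted p = 0.0491), a call that 12 of 16 libraries each removed when left out. Clu, a ligand made in liver, fell in fed KO (-0.64 ± 0.13, adjusted p = 0.000813) and fasted KO livers (-0.72 ± 0.13, adjusted p = 0.00032).
Of 20 genes of the Kupffer niche, 6 rose and 0 fell in fed KO and 3 rose and 1 fell in fasted KO livers. The Csf1r ligands did not pass in either genotype contrast: Csf1 stood at 0.04 (fed) and 0.08 (fasted), and Il34 at -0.05 and 0.37. Gdf2, which encodes BMP9, a ligand for liver endothelium made by stellate cells, rose by 0.46 ± 0.08 in fed KO (adjusted p = 0.000402) and 0.39 ± 0.08 in fasted KO livers (adjusted p = 0.00173). The BMP receptor gene Bmpr2 was the 1 that fell in fasted KO livers (-0.20 ± 0.07, adjusted p = 0.0468). Its call was lost in 11 of 16 fits that each left out 1 library, without both fasted WT replicates 2 and 4 (adjusted p = 0.0724) and without the libraries numbered 1 (adjusted p = 0.246).
Among 18 tetraspanins, Cd9 and Cd63 included, 5 rose and 2 fell in fed KO and 4 rose and 3 fell in fasted KO livers. Of 17 tested scavenger receptors and apoptotic cell receptors and bridges, 3 rose and 4 fell in fed KO and 2 rose and 3 fell in fasted KO livers, with Colec12 falling in both (-0.75 and -0.85).

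**Figure D5:**
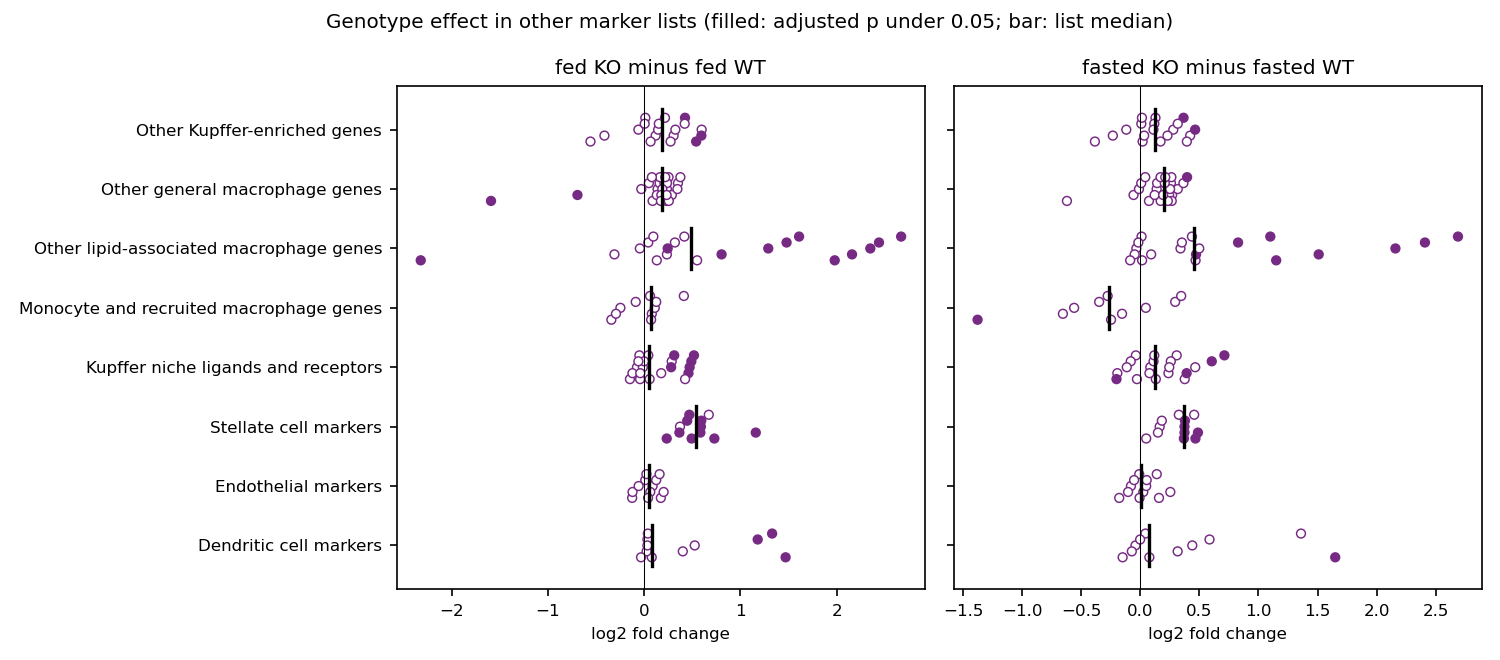
Log2 fold changes (horizontal axes) of the tested genes of 8 lists (vertical axis) between KO and WT livers, fed and fasted; filled points passed an adjusted p of 0.05 and bars are list medians. Filled points gather to the right in the lipid-associated and stellate lists, and endothelial points are all open.

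Monocyte and recruited macrophage genes were read at low levels, and their counts stand against the same shares of all genes. Of 16 such genes 10 could be tested, and the whole list summed to 16.2 to 26.1 CPM in fasted KO, 18.1 to 26.5 CPM in fasted WT, 25.0 to 31.2 CPM in fed KO and 21.3 to 33.8 CPM in fed WT livers. In fed KO livers 0 monocyte genes passed, and in fasted KO livers S100a6 fell (-1.38 ± 0.38, adjusted p = 0.0113). The S100a6 call was lost without fasted WT replicates 2 and 4 (adjusted p = 0.0626) and without the libraries numbered 1 (adjusted p = 0.0823). Of 12 tested cytokine and chemokine genes, 1 rose and 2 fell in fed KO and 2 rose and 1 fell in fasted KO livers; Cxcl1, a neutrophil attractant, fell in fed KO livers (-2.25 ± 0.62, adjusted p = 0.0156), a call lost without the libraries numbered 1 (-1.74, adjusted p = 0.139).

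Markers of other cells were read beside the macrophage markers, and their part in the results was not tested. Of all tested genes, 14.0% rose and 16.9% fell in fed KO livers, and 13.8% rose and 14.5% fell in fasted KO livers. Of 12 stellate cell markers, 10 rose in fed KO and 6 in fasted KO livers and 0 fell (medians 0.54 and 0.37), among them Rgs5 (0.59 fed) and Reln (0.47 fasted). Their sum was 616 to 689 CPM in fasted KO and 477 to 528 CPM in fasted WT livers, and 673 to 739 CPM in fed KO and 447 to 542 CPM in fed WT livers. Of 12 endothelial markers 0 passed in either genotype contrast, by edgeR. Dendritic cell markers rose in 3 of 11 (fed KO) and 1 of 11 (fasted KO), with Xcr1, a marker of conventional dendritic cells, at 1.47 and 1.65; its fasted call was lost without the libraries numbered 1 (adjusted p = 0.141) and without replicate 1 or 2 of fasted KO or 1 or 3 of fasted WT (adjusted p up to 0.0788). Of 11 hepatocyte markers, 1 rose and 4 fell in fed KO livers, and 1 rose and 5 fell after the fast, with Ahsg higher and Apoa1 lower in both. In the genotype contrasts edgeR called 0 of 6 tested bile duct and 0 of 3 tested neutrophil markers, and of 9 tested lymphocyte markers 1, Cd4, which fell in fed KO livers (-1.2). Platelets also carry Cd9: 0 of 3 tested platelet markers passed in either genotype contrast by edgeR, and the list of 8 summed to 8.48 to 11.2 CPM in fed KO and 7.56 to 8.76 CPM in fed WT livers.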

How the data were processed

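Per the labels, 500 ng of liver RNA from each of 16 samples entered stranded poly(A) libraries. The authors deposited unnormalized whole-number read counts for each gene. The submitters' processing notes name cutadapt 1.8, STAR 2.5.3a, HTSeq 0.9.1 and GRCm38; neither the strand setting nor the annotation release is given in the sources used here. The 5 lines that name no gene, mostly reads with several alignments (32 to 45.8% of a library's counts), were left out. Groups came from the labels. Genes were filtered with filterByExpr and scaled by TMM; all 16 libraries entered a single edgeR 4.0.16 model (R 4.3.3) with a coefficient per group, 12 residual degrees of freedom and a common biological coefficient of variation of 0.138. The quasi-likelihood F test was used with Benjamini-Hochberg adjustment over 13905 genes and a threshold of 0.05, and a gene that passed is said to have been called. Log2 CPM used a prior count of 2. Positions and exon lengths are from GENCODE M21 (GRCm38), promoters from RefSeq. The procedure was tested on simulated data.

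Replicate numbers were taken as names: the 24 same-number pairs had correlations of -0.174 to 0.251 over all genes, 3 of them over 0.1. The chi-square per gene between libraries of a group averaged 6.79 to 91.7, so no pair agreed within counting noise. Intervals are standard errors over libraries. Alternatives were size factors (RLE), library totals, no filter, DESeq2 1.42.0, a replicate block, each library left out, fits of only the libraries compared, and omitting fasted WT replicates 2 and 4 (pancreatic transcripts); leaving out the 4 libraries numbered 1 was added after seeing the data. The markers and lists were chosen with earlier results of these data known. Most genes outside the 10 markers were named by rule. It took from each list the called gene with the smallest p in each direction of the genotype and WT fasting contrasts. It added Csf1, Il34, Tyrobp and Apoe, and the 5 genes most like Clec4f, Trem2 and Cd9. Not every gene that the rule gives is named here. Mmp12, Ctsl, Anxa2, Lpl and, in fed KO livers, Mpeg1 were instead named after their values were seen. Tf and Amy2a5 were not found by symbol and are not used here. The values of 1 gene of these lists are not reported here.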

Additional observations from a re-analysis of the deposited data

Results flagged for a closer look

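Within groups of 4, 2 marker levels stood far from the other 3 by Dixon's criterion, out of 44 groups screened; chance gives about 1 in 20. Clec4f was at 121 CPM in fed WT replicate 1, against 82.9 CPM in the next library of that group, and Cd5l at 97.4 CPM in fed KO replicate 1, against 72.2 CPM in the next. Both are libraries numbered 1. Among the other named genes, the genotype effect on Fabp5 differed between feeding states by 2.78 on the log2 scale (fasted minus fed, SE 0.54, edgeR adjusted p = 0.0289).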

How the results depend on the processing

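The markers called numbered 3 (fed) and 2 (fasted) between KO and WT, and 1 (KO) and 1 (WT) between fasted and fed livers. Leaving out each library in turn gave 2 to 5, 1 to 3, 1 to 1 and 1 to 2. With library totals the fed genotype count was 6, with 4886 higher and 915 lower over all genes, against 1948 and 2351 with TMM; the fasted split was 4301 and 902, against 1918 and 2011. DESeq2 called 2 on fasting in WT, with 2395 higher and 2404 lower of 17162 genes. Omitting fasted WT replicates 2 and 4 left 1 in the fasted genotype contrast, with 1558 higher and 1639 lower of 14345 genes. Without the 4 libraries numbered 1, chosen after seeing the data, the counts were 5, 4, 2 and 0. Of 13946 genes, that fit called 1381 higher and 1712 lower (fed genotype) and 1370 and 1461 (fasted genotype). On fasting it called 2426 and 2338 in KO, and 1529 and 1868 in WT.

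Over all genes, same-number libraries had correlations of -0.174 to 0.251, and the labels give the number no meaning. The library numbered 1 was still the highest of every group for 5 of the markers. With a replicate block the fed genotype count was 6, and 2 markers were called on fasting in KO and 2 in WT. Of 13905 genes, that fit called 2003 higher and 2337 lower in the fed genotype contrast. On fasting it called 2955 and 2871 in KO, and 2239 and 2579 in WT. The block takes up the spread of the library numbered 1, so these marker counts are not added evidence.

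Values that turned sign had not been called. With library totals these were Il34 (0.171) and Apoe (0.177) in fed, and Timd4 (0.0457) and Apoe (0.135) in fasted genotype contrasts, and Cd5l (-0.0298) and Csf1r (-0.0181) in the interaction. The Cd5l interaction was -0.00864 with RLE and -0.00413 with DESeq2. Omitting fasted WT replicates 2 and 4 gave fasted values of -0.00474 for Vsig4, -0.102 for Cd5l and -0.0357 for Csf1, and interactions of -0.185 for Cd5l and -0.0722 for Csf1r; that of Csf1r was -0.0607 without the libraries numbered 1. Leave-one-out ranges that crossed 0 were, for KO minus WT in fed livers, Timd4 -0.0881 to 0.265, Cd5l -0.0444 to 0.299, Il34 -0.233 to 0.0243 and Csf1 -0.0456 to 0.167, and in fasted livers Cd5l -0.0797 to 0.356 and Csf1 -0.0344 to 0.167. On fasting they were Vsig4 -0.174 to 0.052 in KO, and in WT Clec4f -0.236 to 0.0511, Timd4 -0.326 to 0.0272, Vsig4 -0.151 to 0.259, Cd5l -0.07 to 0.403, Marco -0.424 to 0.183 and Csf1r -0.273 to 0.0947. For the interaction they were Clec4f -0.281 to 0.00714, Vsig4 -0.308 to 0.102, Cd5l -0.202 to 0.271, Adgre1 -0.0532 to 0.373, Csf1r -0.169 to 0.2 and Cd68 -0.18 to 0.0827. Beyond removing libraries or changing the scaling, the cause was not tested. Trem2, with 4 to 50 reads per library, is limited by depth.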

Other observations

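Fasting in WT livers moved several genes around these cells, all against fed WT livers. Gpnmb rose by 2.79 ± 0.45 on the log2 scale (edgeR adjusted p = 8.27e-05), and Cd14, the lipopolysaccharide co-receptor gene, rose by 0.62 ± 0.18 (adjusted p = 0.0136). Fabp5 fell by 3.89 (adjusted p = 1.13e-05), Il34 by 0.78 (adjusted p = 0.0054), Ccl9 by 0.70 (adjusted p = 9.94e-05), Plac8 by 0.73 (adjusted p = 0.015) and the class II gene H2-Ab1 by 0.78 (adjusted p = 0.021). Without fasted WT replicates 2 and 4 the calls of Cd14 (adjusted p = 0.068), Plac8 (0.0877) and H2-Ab1 (0.0905) were lost, and without the libraries numbered 1 those of Plac8 (0.0741) and H2-Ab1 (0.109). Leaving out 1 library also ended the call of Cd14 (fed WT replicate 4, adjusted p = 0.0506), Plac8 (fed WT replicate 1, 0.066) and H2-Ab1 (fasted WT replicate 2 or fed WT replicate 1, up to 0.0692). Over all tested genes, fasting raised 21.1% and lowered 20.3% in KO, and raised 16.2% and lowered 18.3% in WT livers. Of 12 tested cytokine and chemokine genes, 0 rose and 5 fell in fasted KO, and 0 rose and 6 fell in fasted WT livers. Of 11 dendritic cell markers, 5 fell in fasted KO and 2 in fasted WT livers and 0 rose (the WT calls were lost without the libraries numbered 1), with sums of 72.0 to 126.8 CPM in fasted KO, 72.1 to 116.5 CPM in fasted WT, 138 to 168 CPM in fed KO and 88.6 to 198 CPM in fed WT livers.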
